A study of Homo sapiens with 4 samples.

Results

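The guidance genes measured here were the semaphorins of classes 3 to 7 with their plexin and neuropilin receptors, the ephrins with their EPHA and EPHB receptors, the slits with their ROBO receptors, and the netrins with the netrin receptors DCC, NEO1 and UNC5A to UNC5D. They were chosen by gene symbol, with earlier results of these data known. This gave 71 of the 57879 gene identifiers in the deposited files, under 70 symbols, since EFNA3 was listed under a pair of identifiers. RNA sequencing was done on T24, a human bladder carcinoma cell line, grown in RPMI medium with serum. The 2 EV libraries (labelled control) came from cells with the empty vector, and the 2 TET1-CD libraries from cells expressing the catalytic domain of TET1, the enzyme that oxidizes 5-methylcytosine in DNA to 5-hydroxymethylcytosine. Both groups were, according to the study's methods, stable lines made with lentiviral particles and puromycin selection, and the labels give them the same source name. Whether the libraries of a group came from separate cultures or clones was not given in the sources used here, so p-values measure the spread between these libraries, which may be technical. The comparison answers how RNA levels in TET1-CD cells differed from those in EV cells.

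Semaphorins, ephrins, netrins and slits are families of secreted or membrane-bound cues first known for steering growing axons, and their receptors pass the signal mainly to small GTPases and the actin cytoskeleton. Semaphorins signal through plexins, secreted class 3 semaphorins mostly with a neuropilin as co-receptor. Ephrins are anchored in the membrane of 1 cell and bind Eph receptor tyrosine kinases on the next, type A by a lipid anchor and type B by a transmembrane stretch. In epithelia and their tumors the same families take part in cell contact, migration and the formation of vessels.

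Each library held 17442136 to 20295260 counted fragments, and their TMM scaling factors lay between 0.993 and 1.005. TET1 itself was counted with 111 and 83 fragments in EV against 2939 and 3310 with TET1-CD, a 32.5-fold difference (log2 fold change 5.02, SE 0.08; edgeR adjusted p = 4.9e-10). Levels are given below as normalized counts, that is fragments scaled by edgeR to a common library size. Levels of different genes are compared only as FPKM, fragments scaled to transcript length and to library size. Keratins were abundant, with KRT7 at 544 and 550 FPKM in EV cells and 697 and 688 FPKM in TET1-CD cells, but 6 of 14 urothelial or epithelial markers, among them CDH1, KRT5 and TP63, had at most 3 counts in every library. Summed over the 14 markers, FPKM was 1426 to 1476 in EV and 1619 to 1654 in TET1-CD, a difference carried by KRT7 and KRT18. KRT18 had a mean of 407 FPKM in EV and 465 FPKM in TET1-CD. KRT8, as abundant, went the other way, from 480 to 456 FPKM, and did not pass (edgeR adjusted p = 0.338). The low GATA3 and KRT19 rose 2.39-fold and 2.01-fold (edgeR adjusted p = 0.0163 and 0.00273). The 5 mesenchymal markers summed to 2347 to 2496 FPKM in EV and 1876 to 1946 FPKM in TET1-CD, a difference carried by VIM and FN1. CDH2, at 46.3 and 41.8 FPKM in EV and 44.1 and 46.0 FPKM in TET1-CD, and ZEB1, at 14.04 and 9.81 FPKM and 12.6 and 15.4 FPKM, overlapped between groups, and TWIST1 was at 0. The part of these marker differences in the results below was not tested. Neuronal markers summed to 2.62 to 3.89 FPKM, endothelial markers to 0.25 and 0.33 FPKM in EV and 0.34 and 0.39 FPKM in TET1-CD, and leukocyte markers to 0.38 to 0.52 FPKM, with overlapping groups for the neuronal and leukocyte lists. In such bulk libraries, fewer cells that express a gene and less RNA per cell cannot be told apart.

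Of the 71 guidance genes, 48 passed the filter on low counts and were tested. PLXNB3, SEMA6B, EFNA3 and UNC5B were lower in TET1-CD cells by a fold of at least 2 with an adjusted p under 0.05, and none was higher by that rule. The 4 are 8.33% of the tested members, beside 1.04% of all 14573 genes tested that were called lower and 2.72% that were called higher. No member was called higher by DESeq2, nor at an unadjusted p under 0.05 with a fold of at least 2, where the same 4 were lower, beside 3.34% higher and 1.54% lower of all genes. Without a fold threshold, 20 members (41.7%) passed the edgeR test at an adjusted p under 0.05, 8 higher and 12 lower, beside 19.7% of all genes tested (10.0% higher and 9.61% lower). In every one of the 20, the 2 libraries of one group lay above the 2 of the other, which passing a test on these same libraries makes likely in advance. Over the 48 tested members, 17 had both TET1-CD libraries above both EV libraries and 19 had both below, 35.4% and 39.6%, beside 30.8% and 30.2% of all genes tested. Fold changes were below 0 on the log2 scale in 24 members and above 0 in 24, with a median of 0.004 beside 0.001 over all genes. The median size of the fold change, regardless of sign, was 0.290 beside 0.163. Passing genes were more frequent at higher levels in the whole table, from 13.8% of genes with a mean under 100 normalized counts to 18.8% between 100 and 1000 and 25.7% from 1000. Among the members the numbers that passed were 3 of 12, 11 of 25 and 6 of 11 in these ranges. SEMA6B and UNC5B lay close to the fold threshold, at 2.02-fold and 2.01-fold, and fell under it when library size alone was used for scaling, which left PLXNB3 and EFNA3. Only PLXNB3 and SEMA6B were called lower when EV replicate 2 or TET1-CD replicate 1 was left out, and without EV replicate 1 SEMA6B was under the fold threshold (log2 fold change -0.91) while EFNB3 was called lower. Of the 20, DESeq2 passed 11. The share of all genes that passed with DESeq2 is not given here, so this count does not show whether members differ from other genes. With a library left out, the lone library was assumed to vary like the 2 of the other group. The EV libraries lay further apart than the TET1-CD libraries (chi-square per gene, the spread over that of counting error, 6.41 and 2.75). Over all other fits tried, log2 fold changes ranged from -1.30 to -1.11 for PLXNB3 and from -1.11 to -0.91 for SEMA6B. They ranged from -1.39 to -0.79 for EFNA3 and from -1.18 to -0.85 for UNC5B.

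**Figure D1:**
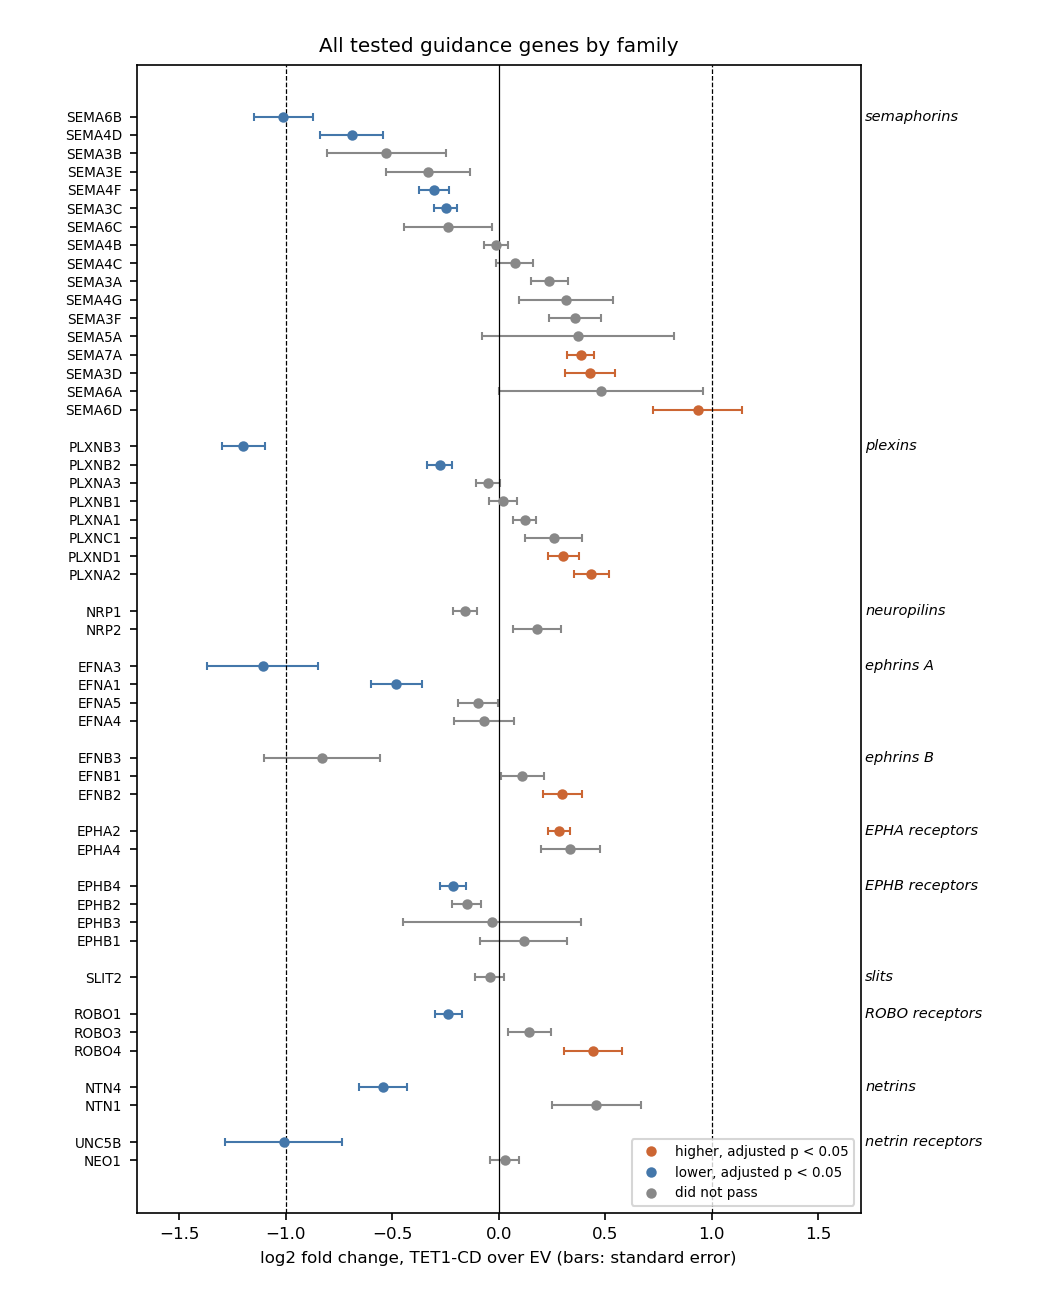
Log2 fold change of TET1-CD over EV (horizontal axis) for the 48 tested guidance genes, grouped by family; bars are the standard error of edgeR's fit on 2 libraries per group, dashed lines mark a fold of 2, and color marks an adjusted p under 0.05. The 4 points at or beyond the left dashed line are PLXNB3, SEMA6B, EFNA3 and UNC5B, and no point lies beyond the right one.

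The 250 bases upstream of the RefSeq start are shown for the gene with the largest fall, the gene with the largest rise and the 3 neighbouring type A ephrin genes, because TET1 acts on methylated cytosines, which in human cells lie mainly in CG. Capitals mark CG, which reads the same on both strands. All are on the plus strand. DNA methylation was not analysed here, and each window is a description of the reference sequence, not of the T24 genome.
PLXNB3: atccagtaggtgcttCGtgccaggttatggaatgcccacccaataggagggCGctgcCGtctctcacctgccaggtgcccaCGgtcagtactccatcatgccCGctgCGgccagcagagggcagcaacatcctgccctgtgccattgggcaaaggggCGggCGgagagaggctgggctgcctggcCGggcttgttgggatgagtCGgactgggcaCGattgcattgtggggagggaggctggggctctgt
SEMA6D: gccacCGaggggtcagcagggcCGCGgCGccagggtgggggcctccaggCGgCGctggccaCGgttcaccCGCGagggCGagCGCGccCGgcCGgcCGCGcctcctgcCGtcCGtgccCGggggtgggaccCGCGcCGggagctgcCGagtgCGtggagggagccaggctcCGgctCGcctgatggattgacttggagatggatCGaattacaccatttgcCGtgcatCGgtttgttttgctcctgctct
EFNA4: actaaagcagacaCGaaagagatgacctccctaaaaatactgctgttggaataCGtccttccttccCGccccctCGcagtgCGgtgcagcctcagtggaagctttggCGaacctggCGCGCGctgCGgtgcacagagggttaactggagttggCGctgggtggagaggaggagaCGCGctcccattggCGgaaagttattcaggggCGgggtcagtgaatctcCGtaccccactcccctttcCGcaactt
EFNA3: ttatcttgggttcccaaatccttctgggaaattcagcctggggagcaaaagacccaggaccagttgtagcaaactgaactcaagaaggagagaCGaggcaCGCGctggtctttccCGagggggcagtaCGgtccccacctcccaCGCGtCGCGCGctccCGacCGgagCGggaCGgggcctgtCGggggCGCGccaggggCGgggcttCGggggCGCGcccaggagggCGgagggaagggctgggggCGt
EFNA1: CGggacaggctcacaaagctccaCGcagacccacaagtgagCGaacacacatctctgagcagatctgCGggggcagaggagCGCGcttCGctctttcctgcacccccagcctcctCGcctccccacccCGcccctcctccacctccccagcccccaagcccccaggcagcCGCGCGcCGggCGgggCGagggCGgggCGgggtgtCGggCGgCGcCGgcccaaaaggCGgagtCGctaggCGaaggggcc
The PLXNB3 window (GRCh37 chrX:153029454-153029703) held 11 CG and the SEMA6D window (chr15:48009452-48009701) 29. EFNA4 (chr1:155035966-155036215), EFNA3 (chr1:155051063-155051312) and EFNA1 (chr1:155100102-155100351) held 17, 23 and 24 CG. SEMA6D has 3 starts in the RefSeq table, and the one with the most CG is shown, which lies 533404 bp downstream of the start of the gene as the files list it. The EFNA3 start lies 15089 bp downstream of the listed one. RefSeq entries were found for 60 of the 70 symbols, and SEMA6B and UNC5B were among those without one. For every gene with several starts, the one with the most CG was used. The median number of CG per window was 28 in the 8 members that rose (range 10 to 41), 18 in 10 of the 12 that fell (range 6 to 39) and 29 in 23 of the 28 that were tested and did not pass (range 6 to 46). It was 20 in 19 of 22 untested members and 12 over all 27305 genes of the table, of which 94.2% held at least 1 CG and 36.0% at least 20. Those 27305 genes were not limited to genes tested here, so they are not a like background for the tested members. The ranges of the rising and falling members overlapped, and no test was made.

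Semaphorins were the largest family, with 20 members of which 17 were tested, 3 rose and 4 fell. SEMA6B, a transmembrane semaphorin of class 6 (ENSG00000167680, GRCh37 chr19:4542600-4559820, minus strand), had 235 and 174 fragments in EV against 94 and 106 in TET1-CD, or a normalized mean of 202 ± 20.6 against 100.5 ± 0.653 (SD, n = 2). Both TET1-CD libraries lay well under both EV libraries, and the fall was 2.02-fold (log2 fold change -1.01, SE 0.14; edgeR adjusted p = 0.000973). SEMA6D, of the same class and a ligand of plexin A1, moved the other way, from 49.8 and 39.9 normalized counts in EV up to 80.9 and 91.4 with TET1-CD. The groups did not overlap, and the rise was 1.91-fold (log2 fold change 0.93, SE 0.21; edgeR adjusted p = 0.012). SEMA6D overlaps a gene on the opposite strand with 3 to 10 fragments. SEMA6B and SEMA6D were both low genes, at 2.96 and 0.63 FPKM (means of the EV libraries). The other members of class 6, SEMA6A and SEMA6C, had log2 fold changes of 0.48 (SE 0.48) and -0.24 (SE 0.21) and did not pass.

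The secreted class 3 and the lipid-anchored class 7 held the most abundant changes. SEMA3C, a secreted ligand with the highest level of all semaphorins, had 8486 and 8081 normalized counts in EV against 6805 and 7135 in TET1-CD. This was a fall of 0.25 on the log2 scale (SE 0.06; edgeR adjusted p = 0.0112). Its FPKM, at 127.6 and 100.8 in EV and 95.9 and 105.2 in TET1-CD, overlapped between groups. SEMA7A, which is held in the membrane by a lipid anchor and binds plexin C1 and integrins, rose from 2986 and 2810 normalized counts to 3971 and 3601. Its level went from 50.0 to 66.8 FPKM, and its log2 fold change was 0.38 (SE 0.06; edgeR adjusted p = 0.00273). SEMA3D, a secreted relative of SEMA3C, rose from 279 and 229 to 328 and 356 normalized counts (log2 fold change 0.43, SE 0.12; edgeR adjusted p = 0.031). SEMA3A, the founding vertebrate semaphorin that collapses growth cones, and SEMA3F had log2 fold changes of 0.24 and 0.36 and did not pass (adjusted p = 0.0845 and 0.0674). The low SEMA3B, at 44.3 and 36.7 normalized counts in EV against 29.8 and 26.7 in TET1-CD, did not pass either, nor did SEMA3E. On chromosome 7, SEMA3E, SEMA3A and SEMA3D lie next to each other as members, 306767 and 502829 bp apart, with log2 fold changes of -0.33, 0.24 and 0.43. On chromosome 3, SEMA3F and SEMA3B lie 78482 bp apart, at 0.36 and -0.53.

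Of the transmembrane class 4, SEMA4D and SEMA4F fell. SEMA4D, the ligand of plexin B1, had 215 and 172 normalized counts in EV against 118 and 122 in TET1-CD, a 1.61-fold fall (log2 fold change -0.69, SE 0.15; edgeR adjusted p = 0.00993). Its leading transcript was ENST00000422704 in EV replicate 1, with 125 fragments, and ENST00000356444 in the other 3 libraries, with 111, 63 and 65. SEMA4F had 758 and 787 against 624 and 628, with a log2 fold change of -0.30 (SE 0.07; edgeR adjusted p = 0.0164). SEMA4B, the second most abundant semaphorin at 83.3 FPKM in EV and 83.8 FPKM in TET1-CD, had a log2 fold change of -0.01 (SE 0.06) with overlapping groups. SEMA4C and SEMA4G did not pass, at 0.08 (SE 0.09) and 0.31 (SE 0.22), and SEMA5A, at 10.1 to 18.1 normalized counts, stood at 0.37 (SE 0.45). SEMA4A, SEMA3G and SEMA5B were too low to test, with SEMA4A at 10 and 17 fragments in EV against 5 and 3 in TET1-CD. Several semaphorin calls were lost when single libraries were left out. Without TET1-CD replicate 1 the edgeR adjusted p was 0.218 for SEMA3C, 0.138 for SEMA4F, 0.0785 for SEMA3D and 0.0512 for SEMA4D, and without TET1-CD replicate 2 it was 0.0848 for SEMA3C, 0.0894 for SEMA4F, 0.209 for SEMA3D and 0.092 for SEMA6D. Without EV replicate 2 it was 0.078 for SEMA3D, and DESeq2 gave an adjusted p of 0.0647 for SEMA6D, 0.0705 for SEMA4F and 0.102 for SEMA3D. SEMA6B and SEMA7A passed in each of these fits, SEMA7A only narrowly without TET1-CD replicate 1.

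Plexins, the semaphorin receptors, included the member with the largest change of all. PLXNB3, a receptor of SEMA5A (ENSG00000198753, GRCh37 chrX:153029651-153044801, plus strand), had 505 and 522 normalized counts in EV against 209 and 238 in TET1-CD. The groups stood far apart, and the fall was 2.29-fold (log2 fold change -1.20, SE 0.10; edgeR adjusted p = 4.67e-05). Its main transcript, ENST00000361971, held 491 and 330 fragments in EV against 151 and 170 in TET1-CD, or 67.8% to 89.8% of the gene. Its mean level went from 5.86 to 2.90 FPKM. The genes that overlap it, SRPK3 and U52111.14, had at most 5 fragments in any library. PLXNA3, the next member on the X chromosome at a distance of 641820 bp, had 1850 and 1896 normalized counts in EV against 1785 and 1835 in TET1-CD and did not pass (log2 fold change -0.05, SE 0.06).

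PLXNB2, the most abundant plexin and a receptor of class 4 semaphorins, had 5475 and 5524 normalized counts in EV against 4319 and 4749 in TET1-CD (log2 fold change -0.28, SE 0.06; edgeR adjusted p = 0.00977). It made up 39.5% of the summed FPKM of the plexins. PLXNA2 rose from 1274 and 1053 to 1590 and 1563 normalized counts, and PLXND1, the receptor of SEMA3E, from 748 and 707 to 870 and 927. Their log2 fold changes were 0.43 (SE 0.08; edgeR adjusted p = 0.00594) and 0.30 (SE 0.07; edgeR adjusted p = 0.0166). PLXNA1, PLXNB1 and PLXNC1 had log2 fold changes of 0.12, 0.02 and 0.26 and did not pass, and PLXNA4, at up to 3 fragments, was not tested. Of the 8 tested plexins, 2 rose and 2 fell, and their summed level was 126 and 130 FPKM in EV and 122 and 128 FPKM in TET1-CD, with overlapping groups. PLXNB2 lost its call without TET1-CD replicate 1 (edgeR adjusted p = 0.211). PLXND1 lost it without TET1-CD replicate 1 or 2 (0.0669 and 0.151) and with DESeq2 (0.0575).

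Neuropilins showed no passing change in the edgeR fit of all 4 libraries. NRP1, the co-receptor that also binds VEGFA, was the main neuropilin at 35.4 FPKM in EV and 33.1 FPKM in TET1-CD. It had 3162 and 3075 normalized counts in EV against 2729 and 2857 in TET1-CD, so the groups did not overlap, but its adjusted p was 0.0683 (edgeR, log2 fold change -0.16, SE 0.06). Without EV replicate 1 or 2 its log2 fold change was -0.14 or -0.18, and these fits took their spread from the closer TET1-CD pair. Among its transcripts, ENST00000265371 was given 967 fragments in TET1-CD replicate 1 and 24 to 30 in the other 3 libraries, while ENST00000374867 held 940 in that library and 2118 to 2642 in the others. NRP2 had a log2 fold change of 0.18 (SE 0.11) and did not pass.

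**Figure D2:**
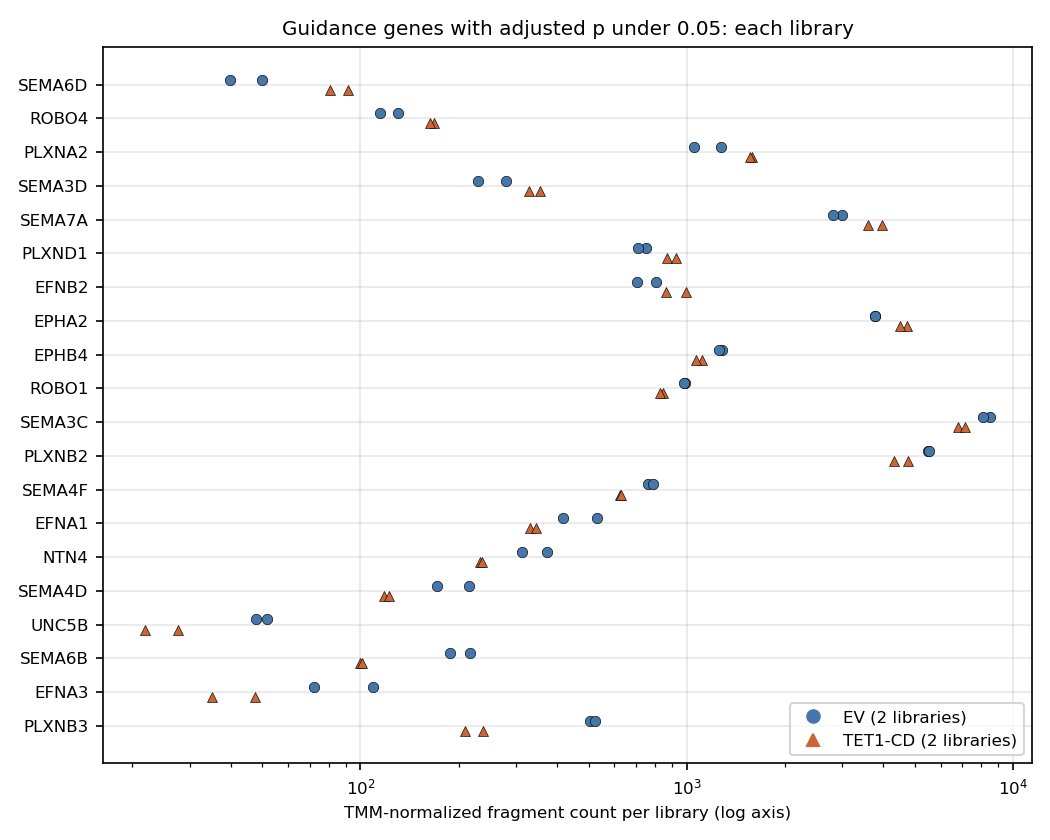
Normalized counts (log axis) in each of the 4 libraries for the guidance genes with an adjusted p under 0.05 from edgeR. Points are single libraries, EV and TET1-CD in their own colors, and in each of the 20 genes the 2 points of one group lie on the same side of the other 2. The genes were picked by the test on these same libraries.

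Ephrins of type A, the lipid-anchored ligands of the EPHA receptors, had 4 tested members, of which EFNA3 and EFNA1 fell and none rose. All 4 had count-based fold changes below 0 on the log2 scale, but EFNA4 and EFNA5 did not pass. EFNA3 (ENSG00000143590, GRCh37 chr1:155036224-155060014, plus strand) had 72.0 and 109 normalized counts in EV against 35.1 and 47.6 in TET1-CD, a 2.15-fold fall (log2 fold change -1.11, SE 0.26; edgeR adjusted p = 0.0154). The groups did not overlap, but the EV libraries lay further apart than the TET1-CD libraries. EFNA1, a ligand of EPHA2, had 416 and 530 normalized counts in EV against 331 and 345 in TET1-CD, a fall of 0.48 on the log2 scale (SE 0.12; edgeR adjusted p = 0.0199). EFNA4, whose listed span overlaps that of EFNA3 on the same strand, had 150 and 167 normalized counts in EV against 137 and 163 in TET1-CD, with a log2 fold change of -0.07 (SE 0.14) and overlapping groups. Fragments shared by EFNA3 and EFNA4 could have been split between them by the counting. EFNA1 lies 39922 bp from EFNA3. EFNA5 stood at -0.10 (SE 0.09), but its FPKM, at 5.22 and 6.5 in EV and 6.59 and 6.64 in TET1-CD, went the other way. EFNA2 and the other EFNA3 identifier had 0 counts in every library. Both calls were lost when single libraries were left out: without EV replicate 2 the edgeR adjusted p was 0.0507 for both (log2 fold change -0.79 and -0.30), and without TET1-CD replicate 1 it was 0.0873 and 0.0884. EFNA1 also lost its call without TET1-CD replicate 2 (0.0583), and its log2 fold changes without TET1-CD replicate 1 or 2 were -0.45 and -0.51.

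EPHA2, the main EPHA receptor in these cells, rose, while its ligand EFNA1 fell. It had 3785 and 3783 normalized counts in EV against 4722 and 4490 in TET1-CD, and its mean level was 51.8 FPKM in EV and 63.5 FPKM in TET1-CD. The rise was 0.28 on the log2 scale (SE 0.05; edgeR adjusted p = 0.00541), larger than the spread within either group. It was lost without TET1-CD replicate 1 (edgeR adjusted p = 0.126). EPHA2 made up 96% of the summed FPKM of the EPHA receptors, and at least 99.4% of its fragments lay on the transcript ENST00000358432. EPHA4, the other tested EPHA receptor, had 136 and 163 normalized counts in EV against 179 and 196 in TET1-CD and did not pass (log2 fold change 0.33, SE 0.14; edgeR adjusted p = 0.119). Its summed FPKM, at 1.68 and 2.91 in EV and 2.32 and 1.78 in TET1-CD, overlapped between groups. The other 7 EPHA receptors were not tested, among them EPHA7 and EPHA8 with 0 counts in every library, and none of the 7 had more than 10 fragments in any library.

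In the transmembrane branch, EFNB2 rose and its receptor EPHB4 fell. EFNB2 had 805 and 706 normalized counts in EV against 998 and 863 in TET1-CD (log2 fold change 0.30, SE 0.09; edgeR adjusted p = 0.0458). EPHB4 had 1282 and 1253 normalized counts in EV against 1115 and 1071 in TET1-CD (log2 fold change -0.21, SE 0.06; edgeR adjusted p = 0.0324). EPHB4 overlaps SLC12A9 on the opposite strand, which had 381 to 484 fragments, and whether the counting used strand was not given in the sources used here. Both calls depended on the test: DESeq2 gave an adjusted p of 0.0916 for EFNB2 and 0.145 for EPHB4. Without TET1-CD replicate 1 the edgeR adjusted p was 0.39 and 0.172, without TET1-CD replicate 2 it was 0.31 for EPHB4, and without EV replicate 2 it was 0.0844 for EFNB2. EFNB3 had 61 and 76 fragments in EV against 30 and 47 in TET1-CD, with a log2 fold change of -0.83 (SE 0.27) whose adjusted p was 0.0574. EFNB1, EPHB1, EPHB2 and EPHB3 had log2 fold changes of 0.11, 0.12, -0.15 and -0.03 and did not pass, and EPHB6, at up to 11 fragments, was not tested.

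Netrins are secreted, laminin-related cues. NTN4, a netrin of basement membranes, had 314 and 372 normalized counts in EV against 233 and 236 in TET1-CD, a 1.46-fold fall (log2 fold change -0.54, SE 0.11; edgeR adjusted p = 0.00935). NTN1, the classical ligand of DCC and the UNC5 receptors, stood at 49.8 and 56.1 normalized counts in EV against 79.8 and 65.7 in TET1-CD and did not pass (log2 fold change 0.46, SE 0.21; edgeR adjusted p = 0.158). UNC5B (ENSG00000107731, GRCh37 chr10:72972327-73062621, plus strand), a repulsive netrin receptor, had 48.0 and 51.8 normalized counts in EV against 27.7 and 21.9 in TET1-CD. The groups did not overlap, and the fall was 2.01-fold (log2 fold change -1.01, SE 0.28; edgeR adjusted p = 0.0287). Its fragments were divided between its 2 transcripts in a way that changed from library to library, with 17 and 33 on ENST00000335350 in EV and 26 and 0 in TET1-CD. UNC5B was rare, at 0.40 FPKM in EV and 0.20 FPKM in TET1-CD. NEO1, which binds netrins and repulsive guidance molecules, made up 96.8% of the summed FPKM of the netrin receptors and had 997 and 924 normalized counts in EV against 953 and 1006 in TET1-CD, with overlapping groups and a log2 fold change of 0.03 (SE 0.07). DCC had 0, 0, 0 and 1 fragments in EV replicates 1 and 2 and TET1-CD replicates 1 and 2, UNC5D the same, and UNC5A 0 in every library, which allows up to 3 fragments per library by counting error. UNC5C, at 3 and 2 fragments in EV against 8 and 7 in TET1-CD, was not tested, and NTN3 and NTN5 had at most 4. UNC5B lost its call with DESeq2 (adjusted p = 0.159) and without EV replicate 2, TET1-CD replicate 1 or TET1-CD replicate 2 (edgeR adjusted p = 0.0561, 0.0844 and 0.194). NTN4 lost its call without TET1-CD replicate 1 or 2 (edgeR adjusted p = 0.0561 and 0.052).

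Slits and some ROBO receptors, such as ROBO1, form a repulsive ligand and receptor system. SLIT2, which made up 99.5% of the summed FPKM of the slits, had 3013 and 2629 normalized counts in EV against 2715 and 2763 in TET1-CD, with overlapping groups and a log2 fold change of -0.04 (SE 0.07; edgeR adjusted p = 0.708). Its direction turned without EV replicate 1 (log2 fold change 0.05), and its log2 fold change was -0.14 without EV replicate 2. ROBO1, the widely expressed slit receptor, had 991 and 981 normalized counts in EV against 847 and 828 in TET1-CD (log2 fold change -0.24, SE 0.06; edgeR adjusted p = 0.0283). ROBO4, known from endothelium, rose from 114 and 131 to 168 and 164 (log2 fold change 0.44, SE 0.14; edgeR adjusted p = 0.0465). Of the 4 endothelial markers listed in the files, TEK was at 0 in every library, VWF and CLDN5 had up to 6 and 4 fragments, and CDH5 had 9 and 10 in EV and 13 and 22 in TET1-CD. ROBO3, which had the highest FPKM of the ROBO receptors and lies 2221 bp from ROBO4 on chromosome 11, had 335 and 336 normalized counts in EV against 344 and 396 in TET1-CD and did not pass (log2 fold change 0.14, SE 0.10; edgeR adjusted p = 0.366). The ROBO1 and ROBO4 calls were lost with DESeq2 (adjusted p = 0.14 and 0.272), without TET1-CD replicate 1 (edgeR adjusted p = 0.193 and 0.224) and without TET1-CD replicate 2 (0.222 and 0.171). ROBO4 was also lost without EV replicate 1 (0.14) and with limma-voom (0.0531). SLIT1, SLIT3 and ROBO2 were not tested, with at most 5, 11 and 13 fragments.

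Of 36 ligand genes, 27 were tested, 4 rose and 7 fell, with a median log2 fold change of -0.04. Of 35 receptor genes, 21 were tested, 4 rose and 5 fell, with a median of 0.03. Beside these counts and those by family above, 10.0% of all genes tested rose and 9.61% fell at an adjusted p under 0.05. The 23 untested members included 11 with at most 3 counts in every library, 6 of them at 0 throughout, and the highest count among the 23 was 17, for SEMA4A.

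Summed over members, semaphorins, plexins, EPHA receptors and neuropilins were, in this order, the families of highest level in both groups. Semaphorins had the highest summed level, with 318 and 279 FPKM in EV and 295 and 307 FPKM in TET1-CD, and overlapping groups. SEMA3C alone made up 35.8% of it. EPHA receptors had 53.8 and 54.8 FPKM in EV and 67.8 and 63.9 FPKM in TET1-CD, and ephrins B had 14.9 and 14.5 FPKM and 17.5 and 16.1 FPKM, with both TET1-CD libraries above both EV libraries. Ephrins A, EPHB receptors, netrins and, by a narrow margin, neuropilins had both TET1-CD libraries below. Ephrins A stood at 28.0 and 33.3 FPKM in EV and 25.0 and 26.3 FPKM in TET1-CD, EPHB receptors at 32.6 and 29.5 FPKM and 27.1 and 28.0 FPKM, and netrins at 5.39 and 6.59 FPKM and 4.59 and 4.64 FPKM, and neuropilins at 40.1 and 38.98 FPKM and 36.8 and 38.9 FPKM. Slits, at 27.0 and 23.1 FPKM and 24.4 and 25.1 FPKM, and netrin receptors, at 11.6 and 9.80 FPKM and 10.3 and 11.1 FPKM, overlapped. With 2 libraries per group, an exact permutation test of such a sum cannot give a p below 0.333, so none was made. The ROBO receptors had 27.6 and 27.1 FPKM in EV and 28.3 and 31.4 FPKM in TET1-CD, both above, a log2 ratio of 0.13 that became -0.05 when counts scaled to library size alone were summed instead.

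**Figure D3:**
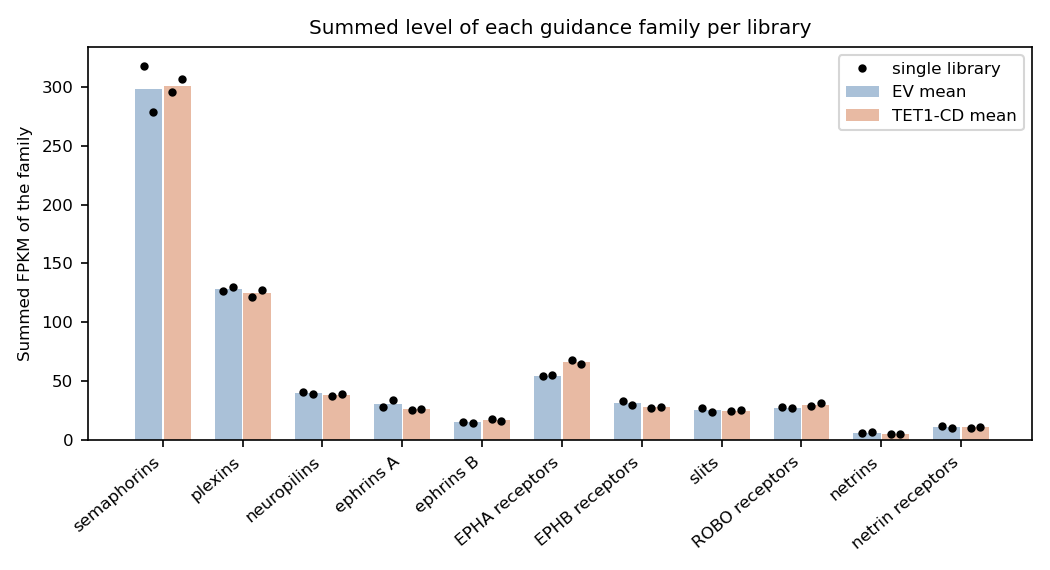
Summed FPKM (vertical axis, linear from 0) of each guidance family, with bars for the mean of the 2 EV and the 2 TET1-CD libraries and points for single libraries. Semaphorins stand highest at 279 to 318 FPKM, and the TET1-CD points of the EPHA receptors, at 63.9 and 67.8 FPKM, lie above their EV points.

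A list of 106 genes that act with these families, such as cytoplasmic adaptors, small GTPases and their regulators, actin regulators and alternative ligands of the neuropilins, was examined beside the members. Of the 88 tested, PGF, NGEF and FES were higher by a fold of at least 2 with an adjusted p under 0.05 and none was lower (3.41%, beside 3.77% of all genes in either direction). At the adjusted p alone, 11 rose (12.5%) and 13 fell (14.8%), 27.3% in all, beside 19.7% of all genes. Many of these pathway genes had over 1000 normalized counts, and of all genes at that level 25.7% passed. The pathway genes were not split by level, and the part of level in their share was not tested. The list was written with earlier results of these data known. Its median log2 fold change was -0.01. PGF, placental growth factor, a ligand of FLT1 and of neuropilins, had 86.7 and 75.5 normalized counts in EV against 296 and 267 in TET1-CD, a 3.45-fold rise (log2 fold change 1.79, SE 0.14; edgeR adjusted p = 2.36e-05). VEGFA, the vascular growth factor that binds NRP1, fell from 3104 and 3257 normalized counts to 1698 and 1740 (log2 fold change -0.89, SE 0.06; edgeR adjusted p = 6.64e-06). The vascular receptors KDR, FLT1 and FLT4 were too low to test.

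NGEF, also called ephexin, an exchange factor downstream of EphA receptors, rose from 10.1 and 18.3 normalized counts to 53.2 and 46.7 (log2 fold change 1.82, SE 0.34; edgeR adjusted p = 0.00534), and FES, a tyrosine kinase of the plexin A pathway, from 19.4 and 18.3 to 52.1 and 51.4 (log2 fold change 1.45, SE 0.28; edgeR adjusted p = 0.00604). GPC1, a heparan sulfate proteoglycan that binds slits, rose by a log2 fold change of 0.49 (SE 0.07), and SIPA1L1, a regulator of Rap GTPases, by 0.35 (SE 0.06). MET, the receptor tyrosine kinase that associates with type B plexins, had 4884 and 4354 normalized counts in EV against 3369 and 3511 in TET1-CD, a log2 fold change of -0.43 (SE 0.07). MYO10, a myosin of filopodia, ABLIM3, an actin-binding LIM protein, and RRAS2, a relative of the GTPase on which plexins act, fell with log2 fold changes of -0.45, -0.51 and -0.41. The adjusted p-values of these 6 genes from edgeR were between 0.000662 and 0.0024, and the groups of none overlapped. These 10 pathway genes passed with the same direction under every alternative test, filter, scaling and left-out library.

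**Figure D4:**
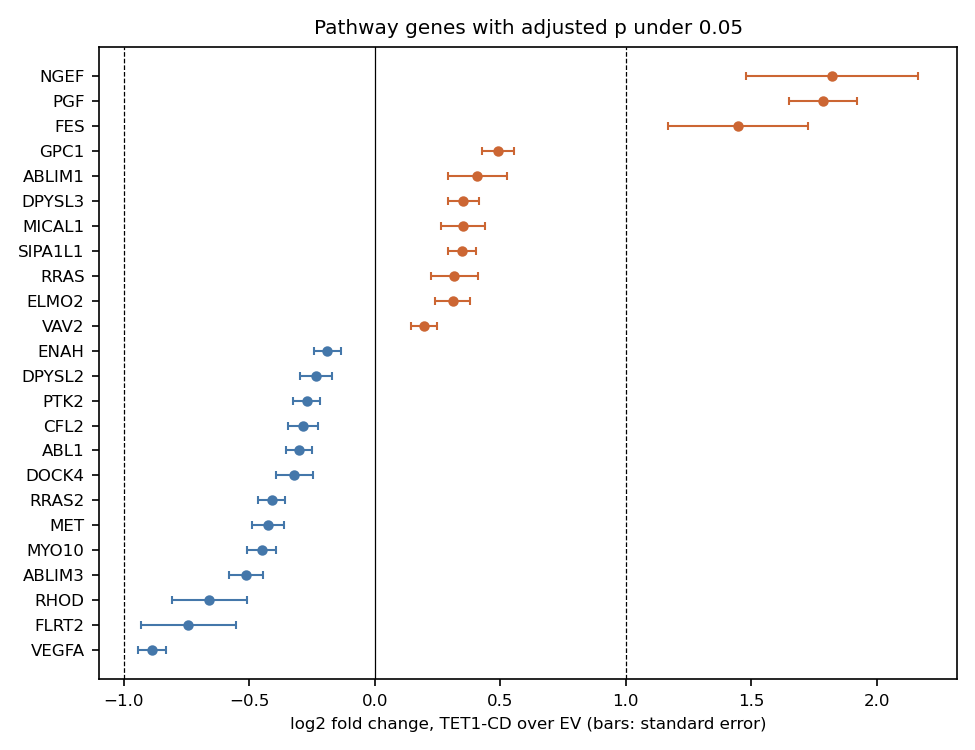
Log2 fold change of TET1-CD over EV (horizontal axis) for the 24 pathway genes with an adjusted p under 0.05, with the standard error of edgeR's fit as bars and dashed lines at a fold of 2. NGEF, PGF and FES lie beyond the right dashed line, and VEGFA is the lowest at -0.89.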

How the data were processed

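RNA of T24 cells was sequenced in 2 EV and 2 TET1-CD libraries, made after poly(A) selection or removal of ribosomal RNA (the labels name both). Per transcript, the authors deposited expected counts, estimated fragment numbers that need not be whole, and FPKM, scaled to transcript length and library size. The submitters' processing notes name cutadapt 1.9.1, HISAT2 2.0.1, HTSeq 0.6.1, DESeq2 and hg19, without their order. The tool behind the estimates is not given in the sources used here.

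Expected counts were summed per gene identifier and rounded, and FPKM were summed. EV and TET1-CD were compared over all genes that passed filterByExpr with edgeR 4.0.16 (glmQLFTest, TMM, no block) in R 4.3.3, with Benjamini-Hochberg adjustment. A gene was called where the adjusted p was under 0.05 and the fold at least 2. Dividing the log2 fold change by the root of F gave its standard error. The test was tried on simulated data.

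Alternatives were DESeq2 1.42.0, limma-voom (limma 3.58.1), a replicate block, no filter or a minimum of 10 counts in every library, RLE or library size alone as scaling, no fold threshold and leaving out each library. Promoters were taken from RefSeq (GRCh38.p14) and matched exactly to GRCh37. The members and lists were chosen with earlier results of these data known. The genes named were those called, those with adjusted p under 0.05, the member of highest FPKM per family, and 10 pathway genes, namely the 3 called and then those of smallest p.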

Additional observations from a re-analysis of the deposited data

How the results depend on the processing

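With 2 libraries per group, the number of passing members depended on the test and on single libraries. For fits other than the main edgeR fit, the share of all genes that passed is not given here. The counts of passing members in those fits therefore do not show whether members differ from other genes. At an adjusted p under 0.05 without a fold threshold, 20 members passed with edgeR, 19 with limma-voom, 22 without a filter and 11 with DESeq2 (3 higher and 8 lower, all among the 20). Leaving out 1 library gave 5 to 23, with 5 without TET1-CD replicate 1, 9 without TET1-CD replicate 2, 20 without EV replicate 2 and 23 without EV replicate 1, and 15 and 19 of the 20 were shared in the last 2 fits. Against 4 members called lower, 2 were called with library size as the only scaling (PLXNB3 and EFNA3), 12 without a fold threshold, and 2 to 4 when 1 library was left out. The 4 without EV replicate 1 were EFNA3, PLXNB3, UNC5B and EFNB3, with SEMA6B at a log2 fold change of -0.906. Called higher were 0 members, 8 without a fold threshold and 0 to 1 when 1 library was left out, the 1 being SEMA6D without EV replicate 1 or TET1-CD replicate 1. The pathway genes called went from 3 to 24 without a fold threshold. PLXNB3 and SEMA6B kept an adjusted p under 0.05 throughout. Directions reversed for SLIT2 (0.054 without EV replicate 1, range -0.137 to 0.054 over the left-out libraries) and NEO1 (-0.025 without EV replicate 2 and -0.012 without TET1-CD replicate 2, range -0.025 to 0.079). The summed level of ROBO receptors went from a log2 ratio of 0.128 to -0.054 when counts scaled to library size alone were summed. ROBO3 made up 60.8% of the summed FPKM, while ROBO1 had more fragments (EV means of 986 and, for ROBO3, 335 normalized counts). The cause was not tested.

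The replicate numbers were not shown to pair the libraries: deviations of same-numbered libraries from their group means correlated at 0.007 over all tested genes. With the replicate block, 22 members passed (9 higher and 13 lower), 20 of them shared, and the same 4 were called at a fold of 2.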
